A study of Mus musculus with 16 samples.

Results

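The mRNAs of the aminoacyl-tRNA synthetases were followed in mouse C17.2α neural cells exposed to strobilurin fungicides. The 38 genes were taken by symbol: 22 of the cytosolic class, which includes the scaffold proteins Aimp1 and Aimp2 and the enzymes used in both compartments, and 16 mitochondrial enzymes, whose symbols end in 2. Of these, 37 had a row among the 54658 symbols in the count tables, and all 37 had a mean of 1 CPM (counts scaled to the library's total) or more, as did 14004 genes in all. Mars2 was not analysed here. Rows were picked by symbol and not by expression value, but the list of symbols was chosen with earlier results of these data known.

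C17.2α cells derive from mouse cerebellum and overexpress TRα1, a thyroid hormone receptor, and all groups shared this background and a medium whose serum had been stripped of thyroid hormone. No T3 was added to the libraries used here. Cells received the solvent DMSO alone (2 libraries) or DMSO with azoxystrobin at 1000 nM (1 library), or with picoxystrobin, pyraclostrobin or trifloxystrobin at 30, 100, 300 and 1000 nM (1 library for each concentration), and were lysed after 24 h. A further library, labelled azoxystrobin at 100 nM, held the same counts as the second DMSO library for every gene and was left out, so that 15 of 16 libraries were used. The sources used here do not say whether the DMSO libraries came from separate cultures, so p-values measure the spread between these libraries only. No concentration was repeated, so each compound was described by its 4 libraries, and their standard deviation (SD) holds any effect of concentration. The line is 1 engineered cell line grown in wells, without the other cells of a brain.

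Synthetases join amino acids to their tRNAs and so supply the ribosome with its substrates. The cytosolic enzymes serve the translation of nuclear mRNAs. The mitochondrial enzymes are encoded in the nucleus and imported to translate the few proteins of mitochondrial DNA. Several cytosolic enzymes sit in the multisynthetase complex, which Aimp1 and Aimp2 help to hold together, whereas the others are free. When amino acids are short or mitochondria are impaired, the transcription factor ATF4 raises a set of genes for amino acid synthesis and uptake, and many cytosolic synthetase genes belong to that set. Strobilurins inhibit respiratory complex III at its quinol oxidation site. Picoxystrobin and azoxystrobin carry a methoxyacrylate group, pyraclostrobin a methoxycarbamate group, and trifloxystrobin an oxime ether ester group.

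The total count was between 12292390 and 18188099 per library (median 16180381), and the counts of a synthetase in 1 library ran from 42 (Pars2) to 7199 (Eprs), so that counting error mattered for the rarer mitochondrial transcripts. Nes (138 to 202 CPM), Vim (2481 to 3237 CPM) and Sox2 (33.6 to 46.3 CPM) marked the cells as neural progenitor-like, although Pax6 was at most 0.126 CPM. The neuronal marker Rbfox3 and the astrocyte marker Aqp4 were at 0 counts in all 15 libraries. In bulk RNA, fewer cells of a type and less RNA per cell cannot be told apart.

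Promoter windows show what sets some of these genes apart in sequence. RefSeq windows of 300 bases (GRCm38.p6, 250 before to 50 after the annotated start) were matched for 29 of the 38 genes. They were searched on both strands for TGATGNAA, the core of the composite element bound by ATF4 with C/EBP factors. It was found in 5 of 15 cytosolic promoters (33.3%) and in 0 of 14 mitochondrial promoters, beside 2.17% of the promoters of expressed genes (266 of 12244) and 3.97% of all windows (1304 of 32851). The 5 genes were Aars, Gars, Iars, Tars and Yars, of which 4 are free enzymes and Iars belongs to the complex. Bases from -200 to 30 around the start are given below in gene orientation for these genes. They are printed because 4 of them are among the transcripts lowest at high pyraclostrobin. Aars2, the mitochondrial partner of Aars, is printed as a comparison without a match. The windows of Sars and Mars, not printed, also held no match, although both transcripts were low at high pyraclostrobin. Capitals mark the match.
Aars (chr8:111033642-111033871, plus strand): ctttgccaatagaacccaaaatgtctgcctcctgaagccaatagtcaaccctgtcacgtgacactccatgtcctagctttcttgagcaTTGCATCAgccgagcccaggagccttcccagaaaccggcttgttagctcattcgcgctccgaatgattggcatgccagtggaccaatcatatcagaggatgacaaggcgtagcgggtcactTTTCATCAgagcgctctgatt
Iars (chr13:49681930-49682159, plus strand): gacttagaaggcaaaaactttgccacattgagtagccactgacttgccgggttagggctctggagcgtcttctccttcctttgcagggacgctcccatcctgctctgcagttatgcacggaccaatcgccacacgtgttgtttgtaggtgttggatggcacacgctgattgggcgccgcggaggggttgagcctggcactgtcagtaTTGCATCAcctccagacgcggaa
Tars (chr15:11399629-11399858, minus strand): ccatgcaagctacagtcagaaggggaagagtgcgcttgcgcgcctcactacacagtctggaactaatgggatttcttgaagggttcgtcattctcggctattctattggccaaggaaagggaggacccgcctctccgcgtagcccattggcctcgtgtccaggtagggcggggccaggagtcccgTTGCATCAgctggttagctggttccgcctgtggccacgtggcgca
Yars (chr4:129189703-129189932, plus strand): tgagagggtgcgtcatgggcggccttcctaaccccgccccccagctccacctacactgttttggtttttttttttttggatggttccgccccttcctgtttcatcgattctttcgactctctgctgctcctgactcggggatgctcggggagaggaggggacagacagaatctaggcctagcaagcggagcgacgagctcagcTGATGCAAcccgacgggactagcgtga
Gars (chr6:55037801-55038030, plus strand): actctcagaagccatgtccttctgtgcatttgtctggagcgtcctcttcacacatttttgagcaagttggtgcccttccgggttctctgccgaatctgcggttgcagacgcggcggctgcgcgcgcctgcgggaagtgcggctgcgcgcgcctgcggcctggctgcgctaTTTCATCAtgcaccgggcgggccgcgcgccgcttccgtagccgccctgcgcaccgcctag
Aars2 (chr17:45506632-45506861, plus strand): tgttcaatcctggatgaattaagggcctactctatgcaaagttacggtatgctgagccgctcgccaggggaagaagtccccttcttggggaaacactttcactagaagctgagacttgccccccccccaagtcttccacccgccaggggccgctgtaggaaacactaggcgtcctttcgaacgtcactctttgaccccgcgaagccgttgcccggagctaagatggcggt
The match began at -112 and again at 9 in Aars, at 7 in Iars, at -15 in Tars, at 3 in Yars and at -30 in Gars, counted from the annotated start. A match is a description of these letters and not a tested site.

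In DMSO, cytosolic synthetase transcripts were mostly more abundant than mitochondrial ones. Per kilobase of the longest transcript, the mean level over the DMSO libraries had a median of 25.0 CPM per kb for the cytosolic class (9.60 to 91.8, n = 22 genes) and of 4.54 CPM per kb for the mitochondrial class (1.58 to 48.1, n = 15 genes). The lowest and highest were Farsa and Aimp2 in the first class, and Pars2 and Lars2 in the second. Partners were paired where their symbols differ only by the final digit, which leaves out the partners of Eprs, Farsa and Farsb. In these 12 pairs, the level of the cytosolic partner was the higher per kb in 11. The exception was leucine, where Lars was at 19.8 CPM per kb and Lars2 at 48.1 CPM per kb.

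Pyraclostrobin was the compound under which the cytosolic class was lowest. The log2 change of each gene from the mean of the DMSO libraries was taken in each library. Its median over the 22 cytosolic genes was -0.22 at 30 nM, -0.08 at 100 nM, -0.36 at 300 nM and -0.40 at 1000 nM, with a mean of -0.27 ± 0.14 (SD, n = 4 libraries). Over the 15 mitochondrial genes the medians were 0.05, 0.07, 0.14 and 0.10, with a mean of 0.09 ± 0.04 (SD, n = 4). The 2 DMSO libraries themselves lay 0.09 below and 0.09 above their mean in the cytosolic class, and the median over all 14004 genes stayed between -0.01 and 0.01 in every library. At 300 and at 1000 nM, 18 of the 22 cytosolic transcripts were below both DMSO libraries, beside 4 and 5 of the 15 mitochondrial ones and 5808 and 6084 of all 14004 genes. The cytosolic medians of all 4 pyraclostrobin libraries fell below the DMSO mean, but at 100 nM the value lay inside the DMSO spread. In the map of all members by library, each class is ordered by its values at 1000 nM pyraclostrobin, which places the low values of that library at the top. The genes at the top of the cytosolic block were also low under pyraclostrobin at 300 nM and under trifloxystrobin at 100 nM.

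**Figure D1:**
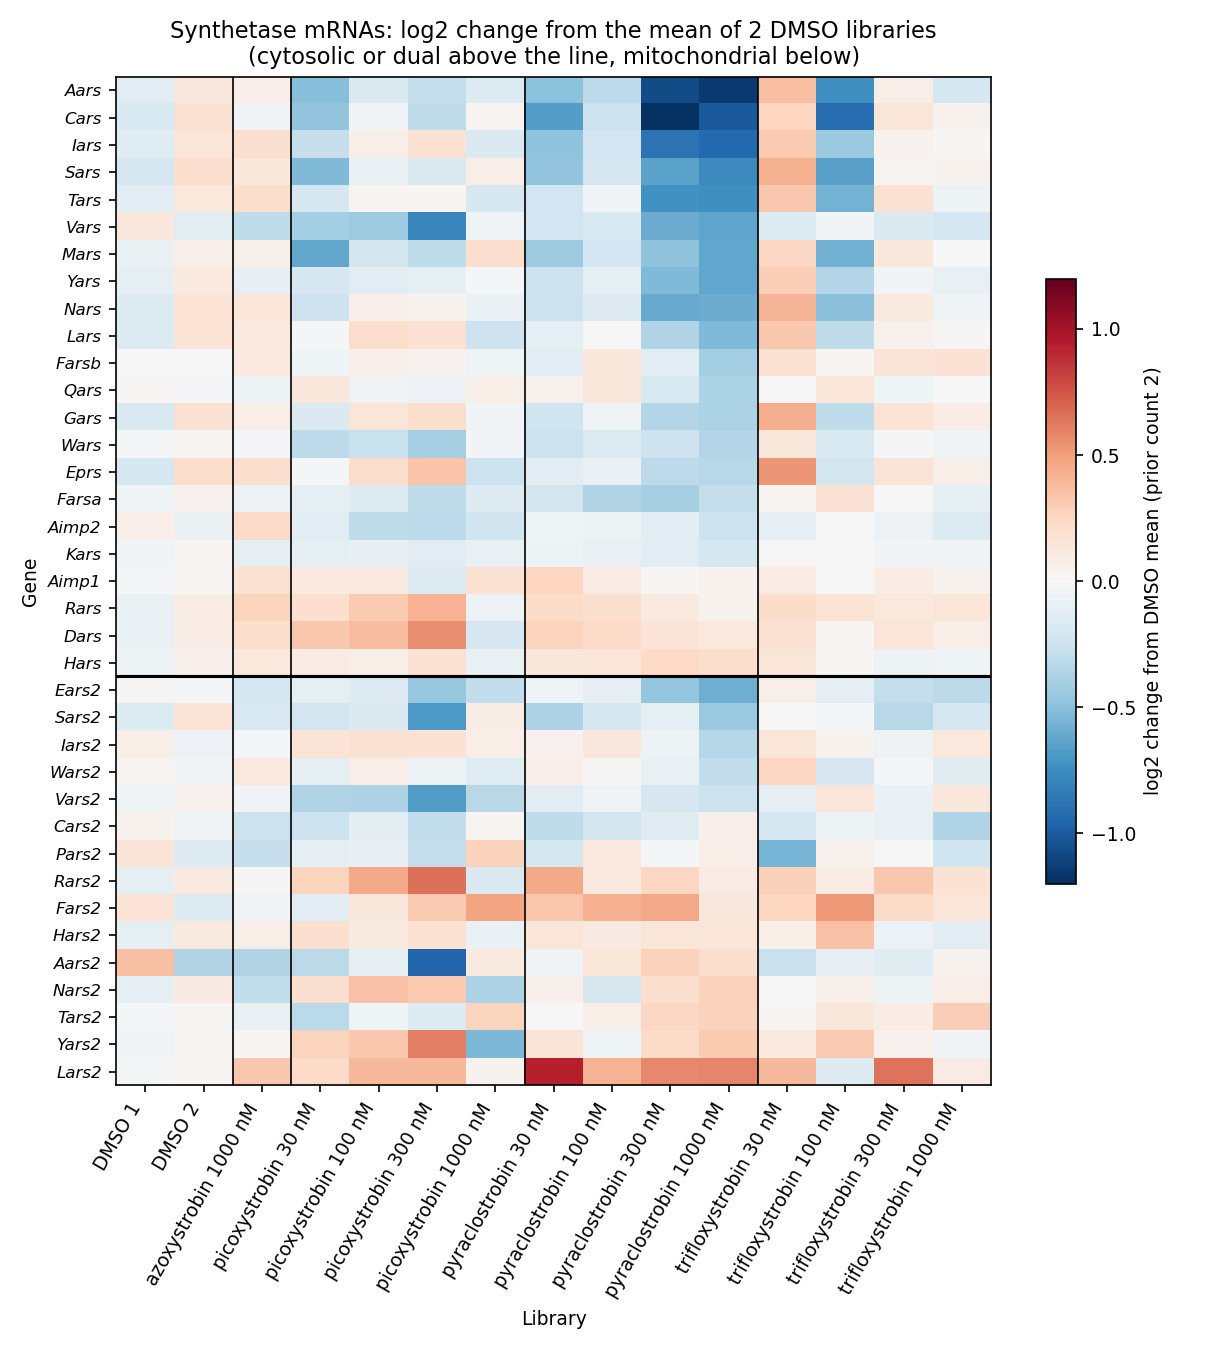
Each cell is the log2 change of 1 gene (row) in 1 library (column) from the mean of the 2 DMSO libraries, with cytosolic or dual genes above the black line and mitochondrial genes below it, ordered by their value at 1000 nM pyraclostrobin. Cytosolic genes are blue (lower) in 18 of 22 rows at 300 and 1000 nM pyraclostrobin, while mitochondrial rows are mixed.

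By edgeR's quasi-likelihood test, pyraclostrobin at all 4 concentrations against DMSO called 0 of the 37 synthetases at an adjusted p (Benjamini-Hochberg over all genes) under 0.05, beside 1.31% of all genes (184 of 14004). At an unadjusted p under 0.05 stood 10 synthetases, of which 9 were lower, all cytosolic, and 1 was higher, the mitochondrial Lars2; this is 27.0% of the members beside 23.3% of all genes. DESeq2 called 1 synthetase, Lars2, beside 849 of all 14004 genes. The median log2 fold change was -0.26 over the cytosolic class and 0.10 over the mitochondrial class, beside 0.01 over all genes. All 4 pyraclostrobin libraries were below both DMSO libraries for 9 of 22 cytosolic genes (Aars, Cars, Farsa, Iars, Kars, Mars, Sars, Vars and Wars) and for 1 of 15 mitochondrial genes (Ears2), beside 18.8% of all genes. They were above both for Dars, Hars and Lars2, beside 2519 of all 14004 genes.

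The alanyl-tRNA synthetase gene Aars was at 123 and 149 CPM in the DMSO libraries, and at 95.8, 109, 64.3 and 60.9 CPM with pyraclostrobin at 30, 100, 300 and 1000 nM. The groups did not overlap, and the 2 highest concentrations gave the lowest values. The mean of 82.5 ± 23.6 CPM (SD, n = 4) against 136 ± 18.3 CPM (SD, n = 2) was a log2 fold change of -0.72 (SE 0.25, adjusted p = 0.117 by edgeR). Cars, which charges cysteine, was at 31.6 and 40.9 CPM in DMSO and at 22.5, 30.1, 15.7 and 17.8 CPM with pyraclostrobin in the same order. Again no value overlapped, although 100 nM came near the lower control, and the log2 fold change was -0.76 (SE 0.28, adjusted p = 0.129 by edgeR).

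Iars, the isoleucyl enzyme of the complex, was at 68.5 and 83.4 CPM in DMSO and at 53.9, 64.3, 40.8 and 39.4 CPM with rising pyraclostrobin. Its groups did not overlap, and its log2 fold change was -0.62 (SE 0.20, adjusted p = 0.109 by edgeR). The threonyl enzyme gene Tars was at 132 and 158 CPM in DMSO and at 123, 141, 87.2 and 86.9 CPM with pyraclostrobin. Here the library at 100 nM lay between the controls, and only the others were below both (log2 fold change -0.40, SE 0.21, adjusted p = 0.270 by edgeR). Vars, for valine, was at 116 and 96.7 CPM in DMSO and at 90.2, 93.3, 70.0 and 68.3 CPM with pyraclostrobin, so that all 4 values were lower than both controls. Yars, for tyrosine, was at 64.6 and 76.2 CPM in DMSO and at 58.7, 65.1, 48.5 and 45.4 CPM with pyraclostrobin, with 100 nM just inside the range of the controls.

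Lars, for leucine, and Qars, for glutamine, both of the complex, were below both controls at 300 and 1000 nM and lowest at 1000 nM. Lars was at 70.0 and 87.7 CPM in DMSO and at 72.9, 78.2, 60.9 and 54.2 CPM with pyraclostrobin. Qars was at 45.98 and 44.98 CPM in DMSO and at 47.1, 50.04, 40.2 and 34.9 CPM with pyraclostrobin, so that 30 and 100 nM were above both controls and 300 and 1000 nM below both. The remaining cytosolic genes had log2 fold changes against DMSO from -0.52 (Sars, for serine) to 0.19 (Dars, for aspartate), and 4 of the 22 cytosolic values were above 0. Dars was at 126 and 143 CPM in DMSO and between 147 and 162 CPM with pyraclostrobin.

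**Figure D2:**
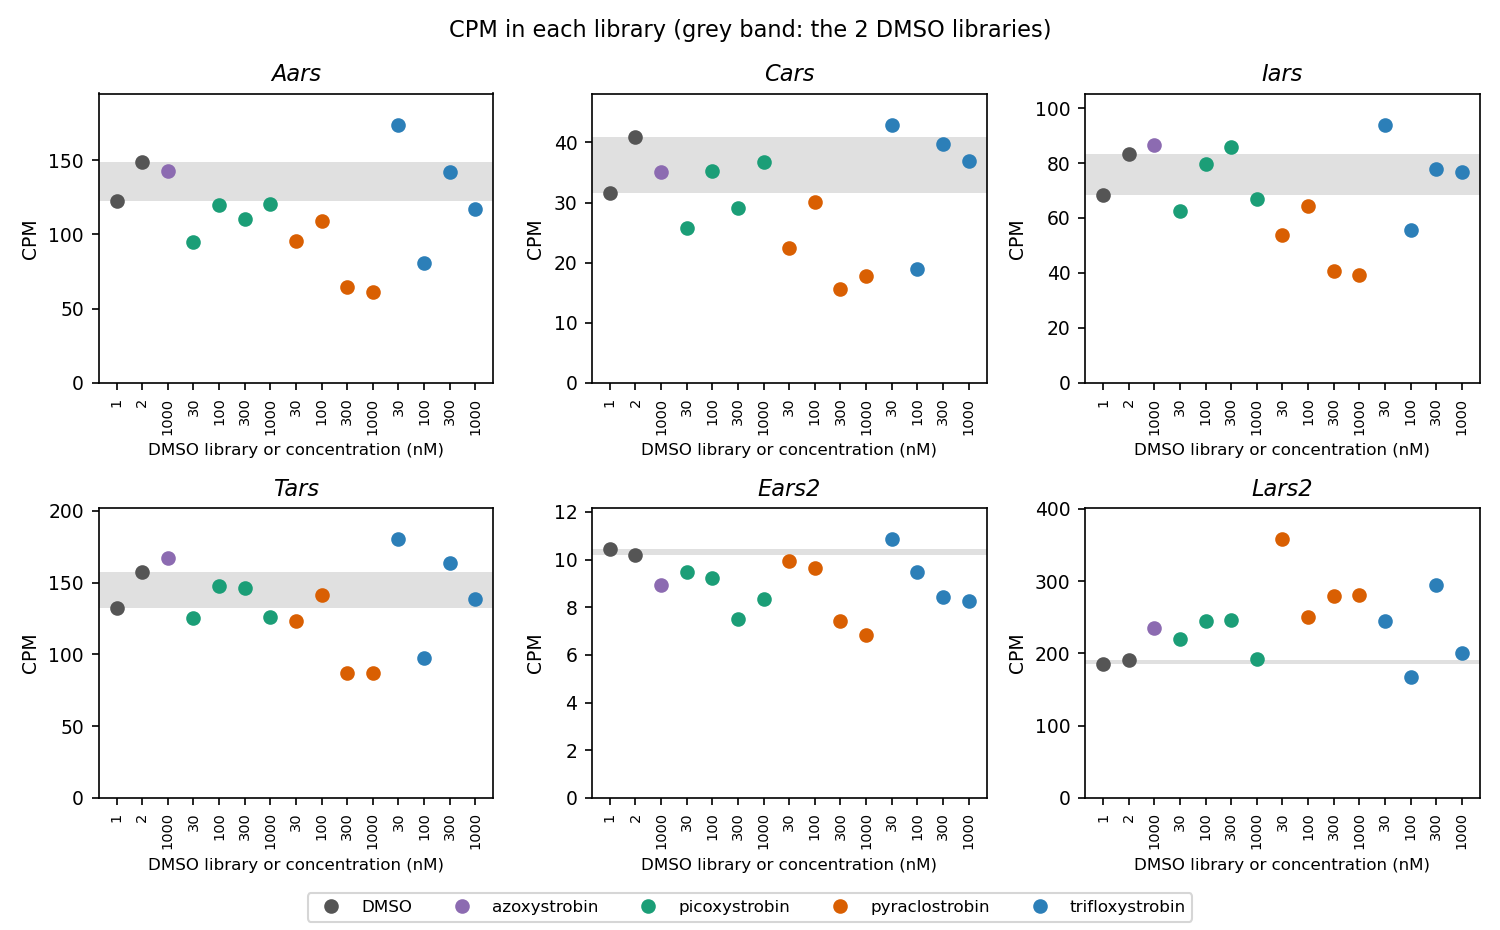
Each point is the CPM of a gene in 1 library, in the order DMSO, azoxystrobin, picoxystrobin, pyraclostrobin and trifloxystrobin, with concentrations rising within a compound and the grey band spanning the 2 DMSO libraries. Aars, Cars and Iars lie below the band in all 4 pyraclostrobin libraries, Tars in 3, Ears2 in 4, and Lars2 lies above it in 4.

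When the concentrations were split into 2 levels, 300 and 1000 nM of pyraclostrobin differed from DMSO in 7 of the 37 synthetases (18.9%), all lower. Among all genes 22.2% were called (3102 of 14004), and 11.5% were called lower, so that the share of synthetases called was near the background. Called were the cytosolic Aars (log2 fold change -1.12, 95% interval -1.69 to -0.54, adjusted p = 0.0121 by edgeR), Cars (-1.11, adjusted p = 0.0240), Iars (-0.92, adjusted p = 0.0119), Tars (-0.73, adjusted p = 0.0345), Vars (-0.62, adjusted p = 0.0276) and Yars (-0.58, adjusted p = 0.0282), and the mitochondrial Ears2 (-0.53, adjusted p = 0.0172). This was 6 of 22 cytosolic genes (27.3%) and 1 of 15 mitochondrial genes (6.67%), with medians of -0.36 and 0.14 beside 0.01 over all genes. Aars, Iars, Tars and Yars carry the match printed above, Ears2 does not, and the windows of Cars and Vars were not analysed here. Gars carries it and was not called. Sars and Mars do not carry it, yet at 1000 nM their log2 changes were -0.76 and -0.63, beside -0.73 for Tars and -0.63 for Yars. Whether the match goes with the change was not tested. The calls rest on 2 libraries against 2. In fits that left out 1 library, 0 synthetases were called without the second DMSO library or without pyraclostrobin at 300 or at 1000 nM, 2 (Aars and Iars) without the first DMSO library, 17 without picoxystrobin at 300 or at 1000 nM, and 11 without trifloxystrobin at 30 or at 100 nM, while each of the 7 stayed lower throughout. The count over all genes moved too: it was 1170 without the second DMSO library, 1692 and 621 without pyraclostrobin at 300 and at 1000 nM, 967 without the first DMSO library, 5648 and 5650 without picoxystrobin at 300 and at 1000 nM, and 3117 and 3116 without trifloxystrobin at 30 and at 100 nM.

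At 30 and 100 nM, the 2-level model called 0 genes of any kind for pyraclostrobin, picoxystrobin or trifloxystrobin (0%), and at 300 and 1000 nM it called 0 genes for picoxystrobin and trifloxystrobin (0%). At an unadjusted p under 0.05 at 300 and 1000 nM stood 4 synthetases for picoxystrobin (10.8% beside 15.6% of all genes) and 1 for trifloxystrobin (2.70% beside 3.27%). DESeq2 was run in this model for pyraclostrobin only, where it called 10 synthetases, 9 of them lower, and 3018 of all 14004 genes. The plot of fold changes at the high level shows the 7 called genes as filled points, together with the intervals of the others. Sars (-0.72), Nars (-0.61), Mars (-0.56) and Lars (-0.46), named here after their values were seen, were similar in size to called genes but did not pass (adjusted p = 0.0802, 0.0688, 0.115 and 0.116 by edgeR). Of the called genes, Aars overlaps Exosc6, Cars overlaps Mir7064 and Iars overlaps Gm25394 and Gm23482 on the same strand, where counting by strand does not separate them. Aars also overlaps Gm24103, and Cars, Ears2 and Yars overlap Gm15580, Ubfd1 and C77080, on the opposite strand. Mars overlaps Ddit3, a stress response gene, and Hars overlaps Hars2, also on opposite strands. Whether strand was used in counting is not given in the sources used here, and without it the reads of such partners cannot be told apart.

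**Figure D3:**
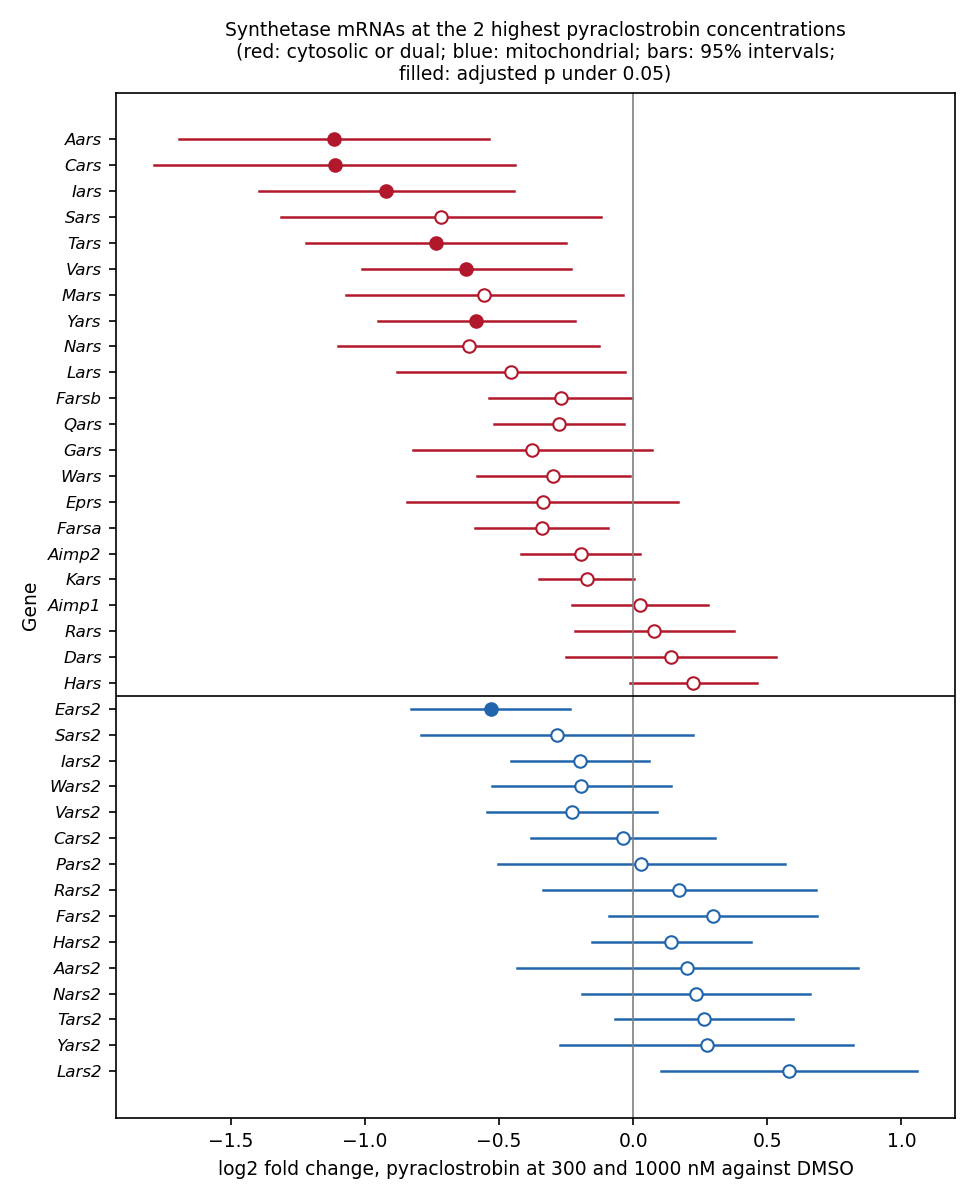
Points are log2 fold changes of each synthetase at 300 and 1000 nM pyraclostrobin (2 libraries) against DMSO (2 libraries), bars are 95% intervals, red marks cytosolic or dual and blue mitochondrial genes, and filled points have an adjusted p under 0.05. The 7 filled points, from Aars (-1.12) to Ears2 (-0.53), all lie below 0.

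The change per 10-fold concentration of pyraclostrobin, fitted without the DMSO libraries, was below 0 for 21 of 22 cytosolic genes (median -0.20) and for 8 of 15 mitochondrial genes (median -0.02), beside 50.5% of all genes (median -0.00). None passed the test: 0 of 37 were called by edgeR and 0 by DESeq2, beside 1.14% of all genes (159 of 14004). At an unadjusted p under 0.05 stood 4 synthetases, all with a negative slope (Aars, Qars, Ears2 and Iars2), or 10.8% beside 19.1% of all genes. The slopes with the largest size were -0.54 for Aars (SE 0.24, adjusted p = 0.255), -0.44 for Tars (SE 0.22, adjusted p = 0.307), -0.40 for Iars and -0.39 for Cars in the cytosolic class. In the mitochondrial class they were -0.39 for Ears2 (SE 0.14, adjusted p = 0.163), -0.27 for Iars2, -0.24 for Wars2, 0.24 for Cars2 and 0.20 for Tars2. Hars was the cytosolic gene with a slope above 0 (0.06). No synthetase slope was called for picoxystrobin or trifloxystrobin by edgeR or DESeq2 (0 genes of any kind called by edgeR, 0%), and at an unadjusted p under 0.05 stood 3 for picoxystrobin (Tars2, Fars2 and Mars, all positive; 8.11% beside 9.70% of all genes) and 0 for trifloxystrobin (beside 1.19%).

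The mitochondrial enzymes moved apart from one another. Ears2, the mitochondrial glutamyl enzyme, was at 10.4 and 10.2 CPM in DMSO and at 9.95, 9.65, 7.44 and 6.83 CPM with pyraclostrobin at rising concentration, below both controls throughout. Iars2 was at 48.95 and 44.3 CPM in DMSO and at 48.1, 51.02, 44.6 and 36.6 CPM with pyraclostrobin, with 1000 nM alone below the controls. Wars2 was at 21.3 and 20.4 CPM in DMSO and at 22.0, 21.0, 19.5 and 17.0 CPM. These 3 were lowest at 1000 nM, whereas Cars2 and Tars2 were highest there. Cars2 was at 11.2 and 10.6 CPM in DMSO and at 8.77, 9.32, 9.84 and 11.3 CPM with pyraclostrobin. Tars2 was at 20.1 and 20.5 CPM in DMSO and at 20.4, 21.3, 24.1 and 24.7 CPM.

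Lars2, the leucyl enzyme of mitochondria, had the highest fold change of the class. It was at 185 and 190 CPM in DMSO and at 358, 251, 279 and 281 CPM with pyraclostrobin, above both controls in all 4 libraries and highest at the lowest concentration. The mean was 292 ± 45.8 CPM (SD, n = 4) against 187 ± 3.95 CPM (SD, n = 2), a log2 fold change of 0.64 (SE 0.19, adjusted p = 0.0828 by edgeR). With the other compounds Lars2 was at 219, 245, 246 and 192 CPM with picoxystrobin at rising concentration, at 245, 168, 294 and 201 CPM with trifloxystrobin, and at 234 CPM with azoxystrobin, so that 1 library of the exposed cells, trifloxystrobin at 100 nM, lay below the controls. The other mitochondrial log2 fold changes against DMSO with pyraclostrobin ran from -0.30 (Sars2) to 0.34 (Fars2), and none was called.

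Partners were set side by side where their symbols differ only by the final digit. The cytosolic transcript had the lower log2 change at 1000 nM pyraclostrobin in 11 of 12 such pairs. The pair furthest apart was Aars (-1.15) and Aars2 (0.21), followed by Lars (-0.53) and Lars2 (0.59), Cars (-1.01) and Cars2 (0.06), and Tars (-0.73) and Tars2 (0.28). The exception among these pairs was histidine, with 0.21 for Hars and 0.15 for Hars2. Partners with other symbols fell outside this rule. Eprs was at -0.33, above Ears2 (-0.58) and below Pars2 (0.08). Farsa and Farsb were at -0.28 and -0.41, below Fars2 (0.13). The slope on concentration was lower for the cytosolic partner in 9 of 12 pairs. These values are from 1 library or 1 compound and carry no test over pairs.

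Within the cytosolic class, the enzymes outside the complex were lower than the members of the complex, which include the scaffolds Aimp1 and Aimp2. The median log2 change of the 12 free enzymes was -0.25, -0.16, -0.57 and -0.61 with pyraclostrobin at 30, 100, 300 and 1000 nM, beside -0.06, -0.03, -0.16 and -0.29 for the 10 members of the complex. The 2 scaffolds, which are not enzymes, were at 0.04 (Aimp1) and -0.26 (Aimp2) at 1000 nM, both above the median of the complex. At the high level 5 of 12 free enzymes and 1 of 10 complex members (Iars) were called lower by edgeR, beside 11.5% of all genes, so that the complex was near the background. A different division separated them in the same way. The 12 synthetases reported as ATF4 targets had medians of -0.26, -0.16, -0.57 and -0.63, and the 8 other cytosolic enzymes -0.01, 0.14, -0.14 and -0.25. In the 12 targets the 2 DMSO libraries lay 0.15 below and 0.15 above their mean. All 12 of the first group were below both DMSO libraries at 300 nM and at 1000 nM, beside 5808 and 6084 of 14004 genes, and 5 of 12 were called lower at the high level, beside 1 of the other 8 (Vars) and 11.5% of all genes. The 2 divisions share many genes, and neither difference between groups was tested.

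**Figure D4:**
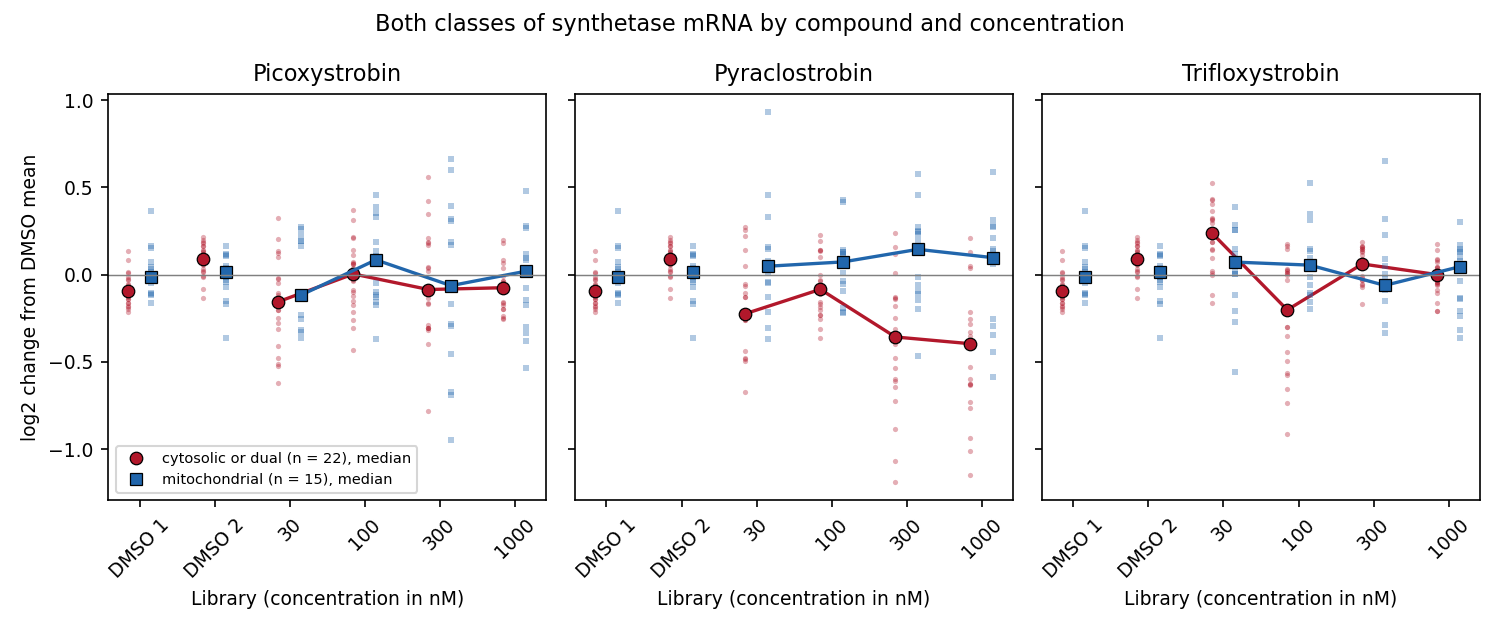
Small points are the log2 change of single genes from the DMSO mean in 1 library, and large symbols are the medians of the cytosolic or dual class (circles, n = 22 genes) and of the mitochondrial class (squares, n = 15 genes). With pyraclostrobin the cytosolic median is -0.36 at 300 nM and -0.40 at 1000 nM while the mitochondrial median stays between 0.05 and 0.14, and with trifloxystrobin the cytosolic median goes from 0.24 at 30 nM to -0.20 at 100 nM.

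The other genes of the ATF4 and amino acid response moved in the same libraries. Their list holds 30 genes, synthetases left out. Against DMSO, pyraclostrobin at all concentrations called 1 of them, Slc38a2, an amino acid transporter, as lower (log2 fold change -0.52, SE 0.12, adjusted p = 0.0491 by edgeR), and the high level called 16 of 30 (53.3%) as lower and 0 as higher, beside 11.5% of all genes called lower. The median log2 change of the list was -0.49, -0.17, -0.87 and -0.97 with rising pyraclostrobin. Atf4 itself was at 639 and 669 CPM in DMSO and at 570, 705, 351 and 303 CPM with pyraclostrobin (log2 fold change at the high level -0.999, adjusted p = 0.0153 by edgeR). The 4 genes of the list with the largest slopes were Chac1, a glutathione-degrading enzyme, Slc7a11, the cystine carrier, Atf5, a related transcription factor, and Trib3, a pseudokinase. At the high level their log2 fold changes were -2.63, -2.23, -2.27 and -1.70, of which the first 3 were called (adjusted p = 0.0370, 0.0284 and 0.0137 by edgeR) and Trib3 was not (adjusted p = 0.0859). The match of the promoter windows was present in 8 of 26 genes of this list (30.8%).

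With trifloxystrobin the cytosolic class went both ways between libraries. Its median log2 change was 0.24 at 30 nM, -0.20 at 100 nM, 0.06 at 300 nM and -0.00 at 1000 nM, a mean of 0.02 ± 0.18 (SD, n = 4), and the mitochondrial mean was 0.03 ± 0.06 (SD, n = 4). All 12 synthetases reported as ATF4 targets were above both DMSO libraries at 30 nM and all 12 below both at 100 nM (medians 0.32 and -0.47), as were 29 and 30 of the 30 genes of the amino acid response list. Among all 14004 genes, 4970 were above both at 30 nM and 5197 below both at 100 nM. Aars was at 174, 80.9, 142 and 117 CPM with trifloxystrobin at 30, 100, 300 and 1000 nM, and Cars at 43.0, 19.0, 39.7 and 36.9 CPM. The libraries at 300 and 1000 nM lay near DMSO in both genes, and the values did not follow the order of concentrations. Over all 4 libraries edgeR called 0 synthetases and 0 genes of any kind (0%), 0 synthetases had an unadjusted p under 0.05 beside 1.71% of all genes, and DESeq2 called 0 synthetases. All 4 libraries were below both controls for 0 cytosolic genes and 1 mitochondrial gene (Cars2), beside 7.78% of all genes. They were above both for Farsb, Rars and Tars2, beside 1058 of 14004 genes.

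With picoxystrobin the medians were -0.16, 0.00, -0.09 and -0.08 for the cytosolic class and -0.12, 0.08, -0.06 and 0.02 for the mitochondrial class at rising concentration, with means of -0.08 ± 0.07 and -0.02 ± 0.09 (SD, n = 4). Synthetases reported as ATF4 targets had medians of -0.26, 0.00, -0.04 and -0.06, and the amino acid response list -0.48, -0.12, 0.03 and 0.00. At 30 nM, 28 of the 30 genes of that list were below both DMSO libraries, beside 5743 of 14004 genes. Pyraclostrobin at 30 nM also had 28 of 30 there, beside 5281 of 14004 genes. Against DMSO, 0 synthetases were called by edgeR and 0 by DESeq2, beside 0.0286% of all genes (4 of 14004), and 4 had an unadjusted p under 0.05, all lower (Vars2, Aimp2, Vars and Wars), which is 10.8% beside 16.8% of all genes. All 4 libraries were below both controls for 5 cytosolic and 2 mitochondrial genes, beside 13.4% of all genes. They were above both for 0 cytosolic and 2 mitochondrial genes (Iars2 and Lars2), beside 1620 of 14004 genes. The library at 1000 nM stood apart in several synthetases. Vars was at 79.8, 78.5, 61.7 and 103 CPM with rising picoxystrobin, below both controls up to 300 nM and between them at 1000 nM. Dars was at 168, 174, 198 and 117 CPM, above both controls up to 300 nM and below both at 1000 nM. Without that library 7 synthetases were called, Dars, Rars, Rars2 and Yars2 higher and Vars, Vars2 and Wars lower, beside 19.2% of all genes (2688 of 14004); the share of synthetases, 18.9%, was near this background. Base composition moved with these values. Across the 37 synthetases, which share each library's depth, Pearson's r between log2 change and GC content (longest transcript) was -0.66, -0.72 and -0.74 at 30, 100 and 300 nM picoxystrobin and 0.23 at 1000 nM, beside -0.53, -0.60, -0.67 and 0.17 across 13929 genes. In the pyraclostrobin libraries r across the synthetases was between -0.40 and -0.23. When an offset for GC content and transcript length was entered per library, edgeR also called 0 synthetases for picoxystrobin. With that offset the mean of the cytosolic medians was -0.26 for pyraclostrobin and -0.05 for picoxystrobin, and that of the mitochondrial medians 0.07 and 0.04, the last changing sign within its SD. Azoxystrobin at 1000 nM gave a cytosolic median of 0.12 and a mitochondrial median of -0.04 in its 1 library, with 0 synthetases called by edgeR or DESeq2 (0% of all genes by edgeR) and 0 at an unadjusted p under 0.05, beside 2.09% of all genes.

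To ask whether the compounds acted alike, 3 pairs were compared at matched concentrations, with concentration as a block. Pyraclostrobin against trifloxystrobin called 0 of 37 synthetases by edgeR and 0 by DESeq2, beside 0.0143% of all genes (2 of 14004), and 13 synthetases had an unadjusted p under 0.05 (35.1% beside 17.1% of all genes), 12 of them cytosolic and lower with pyraclostrobin. The cytosolic median difference was -0.31 and the mitochondrial 0.03. Aars differed by -0.64 (95% interval -1.13 to -0.16, adjusted p = 0.218, and 0.341 over all 3 pairs, by edgeR), Cars by -0.70 (-1.27 to -0.13, adjusted p = 0.233 and 0.352) and Iars by -0.63 (-1.03 to -0.23, adjusted p = 0.179 and 0.311). The intervals leave out 0 but the values do not pass over all genes. Without the library of trifloxystrobin at 100 nM, 7 synthetases were called lower with pyraclostrobin (Aars, Cars, Gars, Iars, Nars, Sars and Tars). This was 18.9%, beside 2.09% of all genes called (293 of 14004) and 0.828% called lower. Aars then differed by -0.92 (SE 0.17, adjusted p = 0.0372 by edgeR). The library left out was the trifloxystrobin library with the lowest Aars (80.9 CPM). In it all 12 synthetases reported as ATF4 targets were below both DMSO libraries, beside 5197 of 14004 genes. Leaving out any other single library called 0 synthetases in this pair. At 300 and 1000 nM alone Aars (-1.05), Cars (-1.201) and Iars (-0.95) were called lower (adjusted p = 0.0362, 0.0362 and 0.0493 by edgeR), beside 0.943% of all genes called and 0.386% called lower.

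Pyraclostrobin against picoxystrobin called 0 synthetases by edgeR and 0 by DESeq2, beside 0.0143% of all genes (2 of 14004). At an unadjusted p under 0.05 stood 5 synthetases, Cars and Iars lower and Aars2, Lars2 and Vars2 higher with pyraclostrobin, or 13.5% beside 11.6% of all genes. Iars differed by -0.58 (95% interval -0.98 to -0.18, adjusted p = 0.353 and 0.325 over all 3 pairs, by edgeR) and Aars by -0.46 (-0.95 to 0.02). Picoxystrobin against trifloxystrobin called 0 synthetases and 0 genes of any kind by edgeR (0%), 0 synthetases by DESeq2, and 3 stood at an unadjusted p under 0.05 (Vars2, Wars and Farsa, all lower with picoxystrobin), or 8.11% beside 8.33% of all genes. Vars2 differed by -0.46 (95% interval -0.69 to -0.22, adjusted p = 0.589 and 0.297 over all 3 pairs, by edgeR). The intervals of most genes in all 3 pairs include differences of either sign, so that these comparisons do not show that the compounds act alike.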

How the data were processed

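RNA-seq libraries were prepared with the total RNA SENSE kit (Lexogen), which keeps the strand, and sequenced from a single end on a NextSeq500. The deposited values are raw counts for each gene, made by the authors with htseq-count, in a separate table for every library and without normalization. The submitters' processing notes name Bowtie2 2.3.2.2 and mm10; the annotation and the strand setting are not given in the sources used here. The other experiments of the study were not analysed here. The level of 1 marker gene is not reported here.

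From the deposited counts, genes with a mean of 1 CPM or more over the 15 libraries (14004) were normalized by TMM and tested with edgeR 4.0.16 (quasi-likelihood, two-sided) in R 4.3.3, with Benjamini-Hochberg adjustment over all genes and a threshold of 0.05. The models had 1 level per compound (10 residual degrees of freedom), a slope on log10 concentration per compound (6), or compound with a concentration block (6). Common dispersions were 0.0164, 0.0140 and 0.0170. Each SE is the absolute log2 fold change over the root of its F statistic. CPM values use TMM factors, and log2 changes per library a prior count of 2. The study tested compounds in DESeq2 with over 10 CPM, which served as alternatives here (DESeq2 1.42.0) beside RLE size factors, other filters, a GC and length offset (natural splines, 4 degrees of freedom), all 16 libraries, 2 concentration levels, separate fits and leaving out each library. Positions, lengths and GC content come from GENCODE M21 (GRCm38) and promoter sequences from RefSeq. The edgeR tests with 1 level per compound, with slopes and in pairs were checked on simulated counts. The 2-level model, DESeq2 and the other alternatives were not checked in this way. All 120 pairs of libraries were compared and 1 was identical.

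The members and gene lists were chosen with earlier results of these data known, so no p is given for a list. By a fixed rule, the text names the 8 cytosolic and 5 mitochondrial genes with the largest change per 10-fold concentration of pyraclostrobin, the lowest and highest of each class, and the 4 largest of each other list; further genes were named after their values were seen. Figures used matplotlib 3.10.9 and pandas 2.3.3 under Python 3.11.15.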

Additional observations from a re-analysis of the deposited data

How the results depend on the processing

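Leaving out 1 library at a time, the number of synthetases called ranged from 0 to 7 for picoxystrobin against DMSO, 0 to 4 for pyraclostrobin against DMSO, 0 to 3 for the picoxystrobin slope, 0 to 1 for the pyraclostrobin slope, 0 to 2 for picoxystrobin against trifloxystrobin, 0 to 7 for pyraclostrobin against trifloxystrobin, and 0 to 17 for pyraclostrobin at 300 and 1000 nM, and was 0 throughout in the other comparisons. The libraries that gave calls were picoxystrobin at 1000 nM (7 against DMSO; 2 against trifloxystrobin, Vars and Vars2; 1 pyraclostrobin slope, Vars; Lars2 for pyraclostrobin against DMSO), picoxystrobin at 300 nM (3 slopes, Dars, Tars2 and Yars2), pyraclostrobin at 100 nM (4 against DMSO, Aars, Cars, Iars and Lars2) and trifloxystrobin at 100 nM (7). Over all 14004 genes, leaving out picoxystrobin at 1000 nM gave 2688, 1054, 1634 and 1204 in that order. The counts were 996 without picoxystrobin at 300 nM, 953 without pyraclostrobin at 100 nM and 293 without trifloxystrobin at 100 nM. Without a filter on low counts 5 synthetases were called for pyraclostrobin against DMSO, 4 against picoxystrobin and 10 against trifloxystrobin, beside 1195, 414 and 808 of 30839 genes. Also without a filter, 2 pyraclostrobin slopes (Aars and Tars) and 1 picoxystrobin slope (Mars) were called, beside 1023 and 372 genes. At 300 and 1000 nM 12 were called, beside 3546 genes, and the GC and length offset also gave 12, beside 3630 of 13929. DESeq2 called 1 for pyraclostrobin against DMSO and the 2-level model 7, beside 849 and 3102 of 14004 genes. At 300 and 1000 nM alone 3 were called against trifloxystrobin, beside 132 genes. The settings of the 2-level model other than its own were chosen after seeing the data. The cause of these differences was not tested. The mean cytosolic median of picoxystrobin was 0.0094 with the first DMSO library as control, -0.162 with the second and -0.0027 for the complex; that of pyraclostrobin was -0.0636 for enzymes not reported as ATF4 targets; the mitochondrial one of pyraclostrobin was 0.0066 with the first DMSO library.

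Among the named synthetases 734 values kept their side of the threshold, 27 passed it, and 13 small ones turned sign. Leaving out 1 library, the log2 difference between pyraclostrobin and trifloxystrobin ranged from -0.0986 to 0.077 for Cars2, -0.0412 to 0.0586 for Tars2 and -0.1432 to 0.0307 for Wars2, and the fold change against DMSO from -0.1202 to 0.0389 for Iars2 and -0.1608 to 0.0076 for Qars. At 30 and 100 nM alone the difference from trifloxystrobin was -0.1307 for Cars2, -0.0368 for Tars2, 0.0105 for Wars2 and 0.0137 for Qars, and with the GC offset it was -0.001 for Cars2.

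Over all genes, DESeq2 called 1 for azoxystrobin, 123 for picoxystrobin and 849 for pyraclostrobin against DMSO, 579 on the pyraclostrobin slope, and 154 for pyraclostrobin against trifloxystrobin, 16 against picoxystrobin and 2 for picoxystrobin against trifloxystrobin. Without a filter these counts were 210 for picoxystrobin and 1195 for pyraclostrobin against DMSO, 372 and 1023 on their slopes, and 808, 414 and 28 in the pairs in the same order. The GC offset gave 0 for picoxystrobin and 722 on the pyraclostrobin slope, which had 0 above 10 CPM; all 16 libraries gave 313 for pyraclostrobin, and separate fits 8 for azoxystrobin, 0 for picoxystrobin and 0 for pyraclostrobin. At 300 and 1000 nM alone pyraclostrobin against picoxystrobin called 11, and at 30 and 100 nM alone 0 in both pairs with pyraclostrobin. Leaving out 1 library gave 0 to 1204 for pyraclostrobin, 0 to 2688 for picoxystrobin and 0 to 293 for pyraclostrobin against trifloxystrobin. Removing the concentration block called 0 synthetases. Apart from the matching by concentration in the pairs of compounds, libraries could not be paired, because replicate numbers mark DMSO libraries only. With 1 library a concentration and 2 controls, small changes of single genes were not detectable.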

Other observations

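Other parts of the translation machinery were described from lists of their own. Of 9 genes listed under cytosolic elongation and termination, 0 were called by edgeR for pyraclostrobin, either over all concentrations or at 300 and 1000 nM, and 0 stood at an unadjusted p under 0.05 in both comparisons. The list includes Eef1e1, which is not an elongation factor and was not counted with the multisynthetase complex here. The median log2 change of the 9 genes was 0.16, 0.09, 0.13 and 0.07 with rising pyraclostrobin. Eef1g, a subunit of the elongation factor that reloads GTP, was at 33.2 and 32.5 CPM in DMSO and at 37.0, 36.1, 31.6 and 27.3 CPM, and Eif5a, which helps the ribosome past difficult peptide bonds, at 228 and 216 CPM in DMSO and at 240, 231, 207 and 184 CPM. Both were above the controls at 30 and 100 nM and below them at 300 and 1000 nM. Their slopes (-0.30 and -0.26) were not called (adjusted p = 0.171 and 0.143 by edgeR), nor were those of Eef1a1 (-0.11) and Gspt1 (-0.10).

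Of 14 mitochondrial translation factors, 1 was called higher and 1 lower at the high level of pyraclostrobin by edgeR (14.3% of the list, beside 22.2% of all genes). Gatb and Gatc are subunits of the enzyme that makes glutaminyl-tRNA in mitochondria, which have no glutaminyl-tRNA synthetase of their own. Gatc was at 65.1 and 60.1 CPM in DMSO and at 63.7, 60.3, 75.9 and 78.7 CPM with rising pyraclostrobin, and was called higher (log2 fold change 0.30, adjusted p = 0.0273). Gatb was at 7.88 and 7.21 CPM in DMSO and at 7.71, 7.69, 5.86 and 5.24 CPM, with a log2 fold change of -0.44 that was not called (adjusted p = 0.0959). Gfm2, a ribosome recycling factor, was called lower (-0.47, adjusted p = 0.0102), and Mtif2, the initiation factor, was at 0.42 (adjusted p = 0.0596). Of the proofreading genes Prorsd1, Dtd1 and Dtd2, which remove wrongly attached amino acids, 0 of 3 were called and 1 (Prorsd1, 0.60) stood at an unadjusted p under 0.05 at this level.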
